A study of Homo sapiens with 18 samples.

Results

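The transcripts described here encode chromatin remodellers, Polycomb proteins and transcriptional coregulators. They were picked by gene symbol alone, from names such as SMARC, ARID, CHD, INO80, BAZ, CBX, PCGF, NCOR, NCOA and SIN3, and 83 of the 8996 genes of the deposited half-life table matched. Of 93 symbols assigned to these complexes, 10 had no entry in the table: SMARCB1, DPF3, CHD5, INO80D, BRD2, PHC1, PCGF1, PCGF2, ASXL3 and ARID5A. The 83 genes were placed in 14 groups by complex or family. The cells were HEK293T, a human embryonic kidney line labelled as WT, kept for 3 h in STM2457, which blocks the mRNA methyltransferase METTL3, or in its solvent DMSO. METTL3 writes most of the N6-methyladenosine (m6A) of mRNA. Labelling with 100 µM s4U then lasted 90 or 180 min or was left out, which makes 6 groups of 3 samples. In SLAM-seq, s4U marks new RNA as T-to-C conversions, and for each gene the table gives a fitted half-life and a fitted rate of synthesis under STM2457 and under DMSO. The table holds 0 columns of single samples, so no value has a replicate error, no p-value can be given, and depth is unknown. A gene is called longer-lived or shorter-lived where its STM2457 half-life differed from its DMSO half-life by more than 1.5-fold, which is a rule of size and not a test. The table names no time unit; hours are inferred from its ceiling of 69.3, which is ln 2 over 0.01. METTL3 mRNA had a half-life of 3.51 h in STM2457 and 4.00 h in DMSO, and the compound acts on the protein. Of 5 genes typical of HEK293 cells, VIM, NEFM and GATA3 were listed, and of 8 markers of other cells COL1A1 and CDX2 were listed; a half-life table gives no levels.

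Nucleosome remodellers use ATP to slide, evict or exchange histones, and fall into the SWI/SNF (BAF), ISWI, CHD and INO80 families. Polycomb complexes keep genes silent by modifying histones H2A and H3, and NCOR and SIN3 bring histone deacetylases to repressed genes. NCOA1, NCOA2 and NCOA3 bring acetyltransferases to nuclear receptors, and the other NCOA genes are grouped with them here by symbol. METTL3 methylates adenosines within DRACH motifs (D is A, G or T; R is A or G; H is A, C or T), mostly in long exons, because complexes left at exon junctions keep nearby sites unmethylated. Readers of the YTHDF family speed the decay of methylated mRNA.

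Coding sequences of the genes at both ends of the half-life ratio are shown with their exon layout. Each line gives the stretch of 120 bases with the most DRACH motifs in the longest coding exon of the transcript with the longest coding sequence (GENCODE release 29, GRCh38). Sequences run 5′ to 3′ on the mRNA strand, the only strand searched, and capitals mark DRACH motifs, which may adjoin. The genes are the 3 with the highest and the 3 with the lowest ratio below the ceiling.
CBX2 (chr17:79784801-79784920, plus strand): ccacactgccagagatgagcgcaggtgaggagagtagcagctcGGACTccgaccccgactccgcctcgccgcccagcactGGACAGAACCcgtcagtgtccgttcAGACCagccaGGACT
NCOA6 (chr20:34742525-34742644, minus strand): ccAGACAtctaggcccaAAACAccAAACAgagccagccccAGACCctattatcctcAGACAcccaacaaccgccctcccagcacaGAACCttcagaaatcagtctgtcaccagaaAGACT
ASXL1 (chr20:32435346-32435465, plus strand): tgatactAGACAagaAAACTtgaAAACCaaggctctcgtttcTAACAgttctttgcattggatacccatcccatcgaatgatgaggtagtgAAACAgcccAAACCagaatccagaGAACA
BRMS1L (chr14:35826517-35826636, plus strand): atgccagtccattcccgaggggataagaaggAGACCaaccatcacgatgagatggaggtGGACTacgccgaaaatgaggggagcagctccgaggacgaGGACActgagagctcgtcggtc
RUVBL1 (chr3:128097379-128097498, minus strand): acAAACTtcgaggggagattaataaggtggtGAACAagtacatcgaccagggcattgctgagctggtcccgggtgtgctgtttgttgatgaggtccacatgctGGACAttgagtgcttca
INO80C (chr18:35497755-35497874, minus strand): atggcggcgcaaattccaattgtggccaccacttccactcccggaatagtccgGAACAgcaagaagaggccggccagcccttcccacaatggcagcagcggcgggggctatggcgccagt

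The stretches of CBX2, NCOA6 and ASXL1 lie in exons with 1308, 2979 and 2904 coding bases. They hold 5, 7 and 7 motifs, all more than 100 nt from an exon junction. Those of BRMS1L, RUVBL1 and INO80C come from exons with 142, 199 and 156 coding bases and hold 3, 3 and 1 motifs. Of these, 1 in BRMS1L and 1 in INO80C were at least 100 nt from a junction, and 0 in RUVBL1. No base of an internal exon of 199 bases lies 100 nt from both junctions, so the RUVBL1 count was set by exon length. The fits of CBX2, NCOA6 and ASXL1 exceed the bound on abundance described with the synthesis rates. The fit of BRMS1L pairs its shorter half-life with a synthesis rate 4.81-fold higher in STM2457, so the size of its ratio is uncertain. A stretch chosen in the same way in 8310 genes held a median of 4 motifs; 97.8% held at least 1, 34.5% at least 5 and 8.82% at least 7. A motif is a feature of sequence and not a measured m6A site.

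As a whole the chromatin genes moved about as often as other genes, and the medians of the complexes lay on both sides of 0, which no test could weigh. Of the 83, 24 (28.9%) were longer-lived in STM2457, against 28.5% of all genes. Another 17 (20.5%) were shorter-lived, against 24.9% of all genes, and 42 (50.6%) stayed within 1.5-fold, against 46.6% of all genes. Their log2 ratios had a median of -0.023 (quartiles -0.45 and 0.61), against -0.0052 (quartiles -0.58 and 0.73) over all genes. Median half-lives were 4.29 h in STM2457 and 3.57 h in DMSO for the chromatin genes, and 5.39 h in STM2457 and 5.61 h in DMSO for all genes. Among the 8 groups with at least 5 genes, longer-lived genes were most frequent among the NCOA genes (5 of 7), CHD remodellers (4 of 8) and ISWI proteins (3 of 7). Shorter-lived genes were most frequent in the INO80, SRCAP and TIP60 group (6 of 10) and the NCOR and ZMYM group (3 of 5). Both ASXL genes and 1 of the 2 other SNF2-family ATPases were longer-lived, and 0 of the CHD, NCOA or PRC1 genes were shorter-lived. Reads may be shared for the 9 genes that overlap a protein-coding gene on the same strand (SMARCE1, BRD9, CHD2, CHD4, SRCAP, INO80B, INO80C, NCOA6 and ARID4B), and for the 11 with named pseudogenes (CBX1, CBX3, CBX5, SMARCE1, BRD7, BRD9, NCOA4, NCOR1, EP400, BPTF and SUZ12); these values are uncertain.

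**Figure D1:**
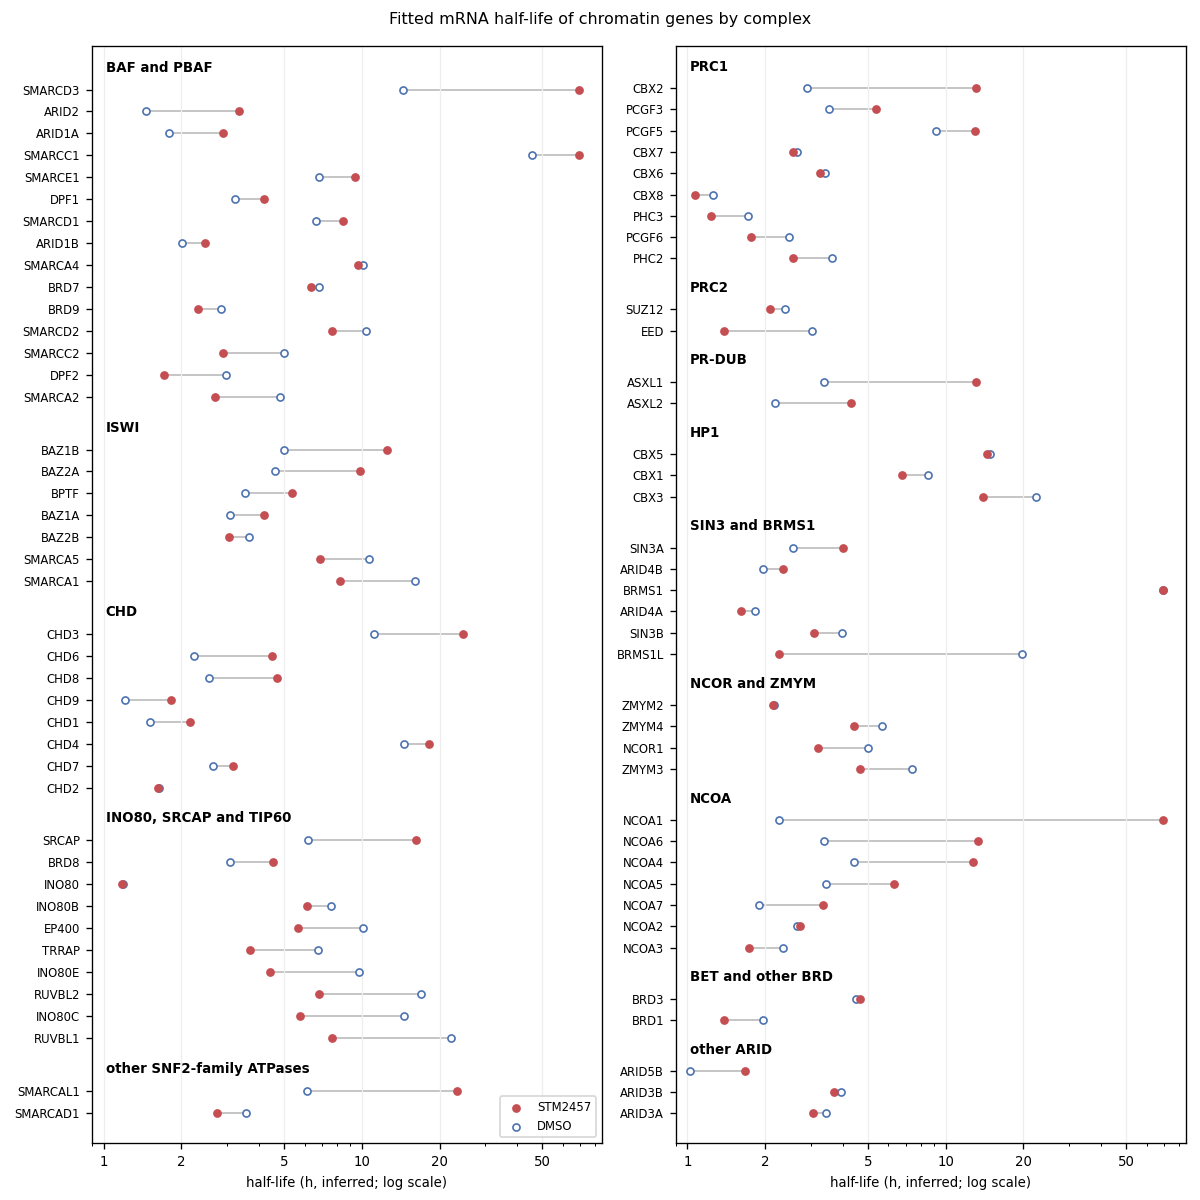
Fitted half-life (h, inferred; log scale) of 80 of the 83 chromatin genes, grouped by complex, with filled points for STM2457 and open points for DMSO. Lines run to the right for ASXL and most NCOA and CHD genes, and to the left for most INO80, SRCAP and TIP60 genes.

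The order of the complexes by median half-life differed between treatments. Among the 8 groups with at least 5 genes, CHD (3.83 h in STM2457, 2.40 h in DMSO) and NCOA (6.30 h in STM2457 and 2.67 h in DMSO) had the lowest medians in DMSO. The INO80, SRCAP and TIP60 group had the highest median in DMSO, at 5.72 h in STM2457 and 8.70 h in DMSO. In STM2457 the highest medians were those of ISWI (6.88 h, against 4.60 h in DMSO) and NCOA, and the lowest were those of PRC1 (2.56 h, against 2.79 h in DMSO) and SIN3 with BRMS1 (2.72 h, against 3.27 h in DMSO). BAF and PBAF had 4.17 h in STM2457 and 5.01 h in DMSO, and NCOR with ZMYM 4.14 h in STM2457 and 5.69 h in DMSO. A pair of medians can fall on different genes and is not a change of any gene. The ISWI medians were those of SMARCA5 in STM2457 and BAZ2A in DMSO. For BAF and PBAF the median log2 ratio was 0.29, though the median half-life was lower in STM2457. Over the 83 genes the median half-life was higher in STM2457, while the median log2 ratio was -0.023. Across the 83 genes the Spearman correlation of STM2457 with DMSO half-lives was 0.70.

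**Figure D2:**
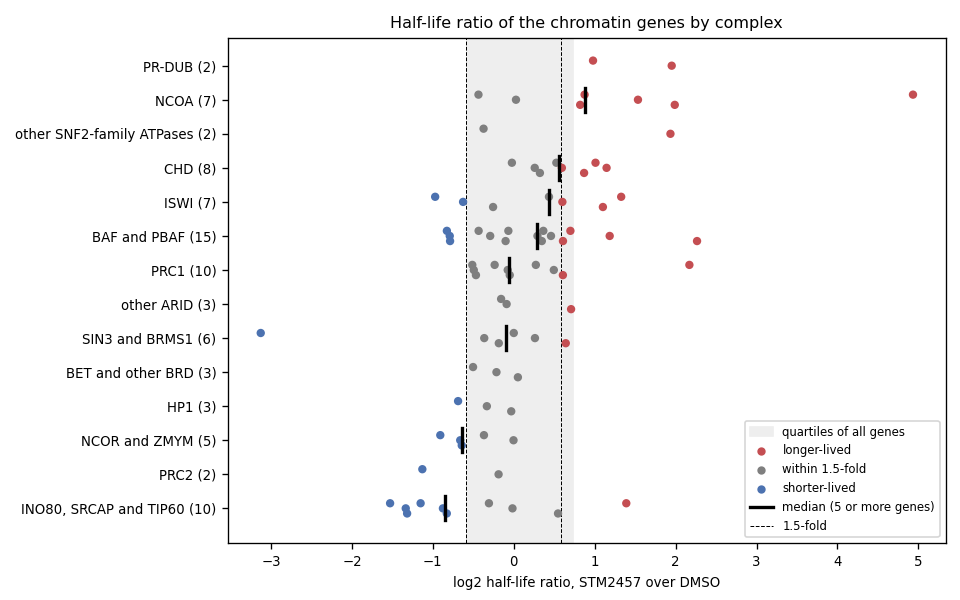
Log2 ratio of half-lives, STM2457 over DMSO, with a point for each gene, by complex (number of genes in brackets, ordered by median). Bars mark medians of groups with at least 5 genes, which run from 0.88 for NCOA to -0.85 for INO80, SRCAP and TIP60; the grey band spans the quartiles of all genes and dashed lines mark 1.5-fold.

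BAF and PBAF, the SWI/SNF remodellers, were mixed: of 15 genes, 4 lived longer, 3 lived less long and 8 did not pass 1.5-fold. The median log2 ratio of 0.29 was -0.067 without SMARCC1 and SMARCD3, which were at the ceiling in STM2457. The ATPases SMARCA4 and SMARCA2, which are alternative motors of the complex, differed. SMARCA4 had half-lives of 9.65 h in STM2457 and 10.1 h in DMSO, and SMARCA2 had 2.71 h in STM2457 and 4.81 h in DMSO, 1.77-fold shorter. The ARID subunits help direct the complex to DNA, and 2 of the 3 in this group were longer-lived. ARID2, which defines PBAF, had 3.33 h in STM2457 and 1.47 h in DMSO, 2.27-fold longer. ARID1A had 2.90 h in STM2457 and 1.79 h in DMSO, 1.62-fold longer, while its paralogue ARID1B stayed within 1.5-fold at 2.46 h in STM2457 and 2.01 h in DMSO.

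The core scaffold subunits of BAF also split within families. SMARCC2 was 1.73-fold shorter-lived, at 2.90 h in STM2457 and 5.01 h in DMSO. Its paralogue SMARCC1 was at the ceiling of 69.3 h in STM2457 and had 45.5 h in DMSO. The pair, which forms the base of the complex, differed in half-life in both treatments. Among the SMARCD subunits, SMARCD3 was at the ceiling in STM2457 and had 14.4 h in DMSO, while SMARCD1 (log2 ratio 0.35) and SMARCD2 (-0.43) stayed within 1.5-fold. DPF2, a reader of acylated histones, was 1.73-fold shorter-lived at 1.72 h in STM2457 and 2.98 h in DMSO, and DPF1 had a log2 ratio of 0.37. SMARCE1 (0.46), BRD7 (-0.10) and BRD9 (-0.29) stayed within 1.5-fold.

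Among the ISWI proteins, both ATPases were shorter-lived and 3 of their 5 large partners were longer-lived. SMARCA1 had half-lives of 8.21 h in STM2457 and 16.1 h in DMSO, 1.96-fold shorter, and SMARCA5 had 6.88 h in STM2457 and 10.6 h in DMSO, 1.54-fold shorter. These paralogues are the motors of the ISWI complexes. BAZ1B, the partner in the WICH complex, had 12.5 h in STM2457 and 4.99 h in DMSO, 2.51-fold longer. BAZ2A, the partner in the nucleolar NoRC complex, had 9.88 h in STM2457 and 4.60 h in DMSO, 2.15-fold longer. BPTF, the large subunit of NURF, had 5.36 h in STM2457 and 3.53 h in DMSO, 1.52-fold longer and close to the threshold. BAZ1A (log2 ratio 0.43) and BAZ2B (-0.26) stayed within 1.5-fold. The median of the 7, 0.43, was -0.26 without BAZ1B and BAZ2A, whose fits exceed the bound on abundance described with the synthesis rates. The bound uses the same fits and both genes were longer-lived, so the median falls without them by construction.

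The CHD remodellers, chromodomain ATPases, had log2 ratios from -0.023 to 1.15. CHD3, a motor of the NuRD deacetylase complex, had 24.7 h in STM2457 and 11.1 h in DMSO, 2.21-fold longer. CHD4, the other NuRD motor, had 18.2 h in STM2457 and 14.6 h in DMSO, within 1.5-fold. These were the longest half-lives of the family in both treatments. CHD6 had 4.49 h in STM2457 and 2.23 h in DMSO (2.01-fold longer), CHD8 had 4.69 h in STM2457 and 2.57 h in DMSO (1.83-fold longer), and CHD9 had 1.83 h in STM2457 and 1.21 h in DMSO (1.51-fold longer). CHD1, which travels with elongating polymerase, had 2.17 h in STM2457 and 1.51 h in DMSO, 1.44-fold. CHD7 had 3.16 h in STM2457 and 2.64 h in DMSO, and CHD2 had 1.62 h in STM2457 and 1.64 h in DMSO.

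The INO80, SRCAP and TIP60 group, which exchanges the histone H2A.Z or acetylates histones, held 6 shorter-lived genes and 1 longer-lived gene, and its other 3 did not pass 1.5-fold. RUVBL1 had a half-life of 7.67 h in STM2457 and 22.1 h in DMSO, 2.88-fold shorter. Its partner RUVBL2 had 6.81 h in STM2457 and 17.0 h in DMSO, 2.49-fold shorter. These ATPases form a ring shared by all 3 complexes and were among the most stable chromatin transcripts in DMSO. INO80C was 2.52-fold shorter-lived (5.76 h in STM2457, 14.5 h in DMSO) and INO80E 2.22-fold (4.41 h in STM2457 and 9.79 h in DMSO). The motor INO80 itself had 1.17 h in STM2457 and 1.19 h in DMSO, and INO80B a log2 ratio of -0.31.

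The giant scaffolds of the same group also differed from each other. EP400, the motor of the TIP60 complex, had 5.68 h in STM2457 and 10.1 h in DMSO, 1.77-fold shorter. TRRAP, a pseudokinase scaffold shared with SAGA, had 3.70 h in STM2457 and 6.79 h in DMSO, 1.83-fold shorter. SRCAP, the motor that deposits H2A.Z, went the other way, at 16.3 h in STM2457 and 6.21 h in DMSO, 2.62-fold longer. SRCAP overlaps TMEM265 and AC106886.5 on the same strand, so its reads may be shared. BRD8, a TIP60 subunit, had a log2 ratio of 0.55, just inside 1.5-fold. Of the remaining SNF2-family ATPases, SMARCAL1, which restarts replication forks, had 23.4 h in STM2457 and 6.12 h in DMSO (3.83-fold longer), and SMARCAD1 a log2 ratio of -0.37.

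PRC1, which ubiquitinates H2A, had 8 of its 10 genes within 1.5-fold, against 46.6% of all genes. Its median half-life was low in both treatments. CBX2, a chromodomain subunit that reads H3 methylation, was the exception in size, at 13.1 h in STM2457 and 2.91 h in DMSO, 4.50-fold longer. The other PRC1 chromodomain genes described here stayed within 1.5-fold. CBX8 had 1.07 h in STM2457 and 1.26 h in DMSO, and CBX6 and CBX7 had log2 ratios of -0.07 and -0.05. PCGF3, a RING-finger partner that sets the PRC1 subtype, was 1.52-fold longer-lived, at 5.39 h in STM2457 and 3.54 h in DMSO. PCGF5 (0.49) and PCGF6 (-0.49) stayed within 1.5-fold, as did the SAM-domain proteins PHC2 (-0.51) and PHC3 (-0.47). The PRC1 median of -0.062 was 0.27 without the genes that overlap any annotated gene on the same strand.

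In PRC2, which methylates H3, EED had 1.39 h in STM2457 and 3.03 h in DMSO, 2.19-fold shorter. SUZ12 had 2.09 h in STM2457 and 2.38 h in DMSO, within 1.5-fold. EED reads the mark that PRC2 writes, and SUZ12 is its scaffold. The ASXL proteins, partners of the H2A deubiquitinase BAP1, were both longer-lived. ASXL1 had 13.1 h in STM2457 and 3.39 h in DMSO, 3.87-fold longer, and ASXL2 had 4.29 h in STM2457 and 2.18 h in DMSO, 1.97-fold longer. Of the HP1 proteins, which bind methylated H3 in heterochromatin, CBX3 had 13.9 h in STM2457 and 22.4 h in DMSO, 1.61-fold shorter. CBX5 (-0.03) and CBX1 (-0.33) stayed within 1.5-fold. Named pseudogenes exist for all 3 HP1 genes, 9 of them for CBX3, so these values are uncertain where reads could be split.

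Among the corepressors, the NCOR and ZMYM group held shorter-lived genes and 0 longer-lived ones. NCOR1 had 3.21 h in STM2457 and 5.01 h in DMSO, 1.56-fold shorter. NCOR1 is a scaffold for HDAC3 and has 3 named pseudogenes, which may take some of its reads. ZMYM3, of the LSD1-CoREST complexes, was 1.58-fold shorter-lived (4.67 h in STM2457, 7.40 h in DMSO), while ZMYM4 (log2 ratio -0.37) and ZMYM2 (-0.0034) stayed within 1.5-fold. In the SIN3 group the scaffolds differed: SIN3A had 4.00 h in STM2457 and 2.56 h in DMSO, 1.56-fold longer. SIN3B had 3.09 h in STM2457 and 3.98 h in DMSO, within 1.5-fold.

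BRMS1L, a subunit of SIN3 deacetylase complexes, had the lowest ratio of the 83 genes, at 2.26 h in STM2457 and 19.7 h in DMSO, 8.74-fold shorter. Its fitted synthesis rate in DMSO, 5.42, was the lowest of the 83. In STM2457 that rate was 26.0, 4.81-fold higher, so synthesis multiplied by half-life fell only to 0.55-fold. The rate and the half-life were fitted together, so the size of this half-life ratio is uncertain. BRMS1, the paralogue of BRMS1L, was at the ceiling in both treatments, where the ratio is 0 by construction. The SIN3-associated ARID4A (-0.19) and ARID4B (0.26) stayed within 1.5-fold. Of the other ARID factors, ARID5B was 1.63-fold longer-lived (1.68 h in STM2457, 1.03 h in DMSO), and ARID3A (-0.16) and ARID3B (-0.09) stayed within it. The bromodomain proteins BRD3 (0.05) and BRD1 (-0.50) did too.

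The NCOA genes, grouped by symbol, held 5 longer-lived genes of 7, with a median log2 ratio of 0.88. Without NCOA1, NCOA4 and NCOA6, whose fits exceed the bound on abundance, 2 of 4 were longer-lived and the median was 0.42. The bound uses the same fits and these genes were all longer-lived, so both values fall by construction. NCOA1 was at the ceiling of 69.3 h in STM2457 and had 2.27 h in DMSO, a log2 ratio of 4.93 whose size is set by the ceiling. Its p160-family paralogues did not follow: NCOA2 had 2.72 h in STM2457 and 2.67 h in DMSO, and NCOA3 had 1.73 h in STM2457 and 2.34 h in DMSO, both within 1.5-fold. NCOA6, a subunit of KMT2 methyltransferase complexes, had 13.4 h in STM2457 and 3.38 h in DMSO, 3.97-fold longer, and it overlaps PIGU on the same strand. NCOA4, best known as the receptor for ferritin autophagy, had 12.7 h in STM2457 and 4.40 h in DMSO, 2.90-fold longer. NCOA5 had 6.30 h in STM2457 and 3.43 h in DMSO (1.83-fold longer), and NCOA7 had 3.35 h in STM2457 and 1.90 h in DMSO (1.77-fold longer).

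The chromatin genes carried more coding DRACH motifs far from exon junctions than other genes, where far means at least 100 nt. Their median was 11 far motifs, against 3 over all 8527 genes with a coding model, and 88% of them had at least 1, against 74.4%. Their coding sequences were longer, with a median of 3486 nt against 1389 nt. Medians by complex were 33 for NCOA, 29 for CHD, 27 for ISWI, 18 for NCOR with ZMYM, 12 for SIN3 with BRMS1, 5.5 for PRC1, 4.5 for INO80, SRCAP and TIP60, and 2 for BAF and PBAF. Over the 83 genes the Spearman correlation between the far motif count and the log2 half-life ratio was 0.45, and over all genes it was 0.26. With coding length in place of motifs it was 0.27 over the 83, and with the longest coding exon 0.46. Over all genes these were 0.0097 and 0.25. These points share 1 set of libraries, and motif count, coding length and exon length are tied to each other. The far motif count also went with the DMSO half-life (Spearman -0.55 over the 83 genes) more than with the STM2457 half-life (-0.17). Over all genes the order was the same, at -0.50 with DMSO and -0.23 with STM2457.

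**Figure D3:**
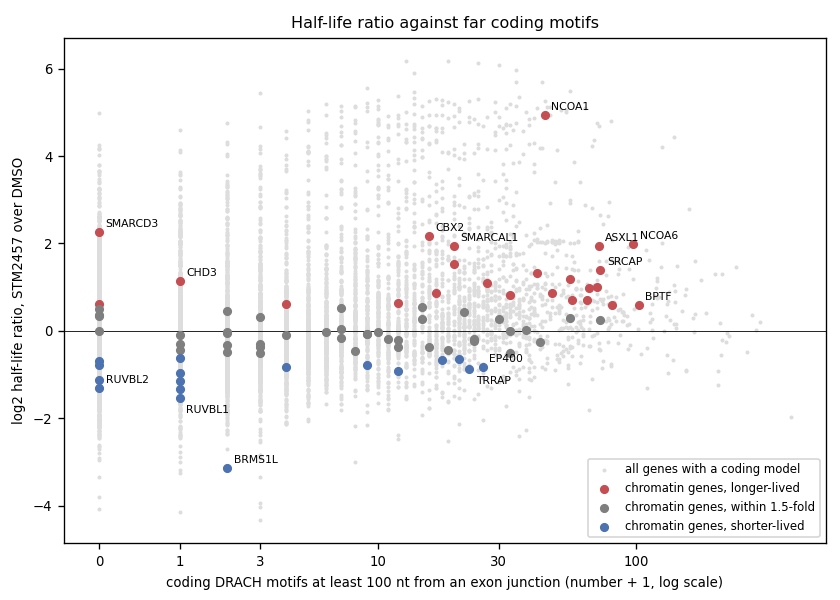
Log2 ratio of half-lives, STM2457 over DMSO, against the number of coding DRACH motifs at least 100 nt from an exon junction (number plus 1, log scale); coloured points are the chromatin genes and grey points all genes with a coding model. With 10 or more motifs 20 of 43 chromatin genes were longer-lived, and TRRAP and EP400 were shorter-lived with 23 and 26 motifs.

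In the class with the most far motifs the chromatin genes had shares close to those of the rest of the table, and in the other classes they did not in each measure. With 10 or more motifs, 20 of 43 chromatin genes (46.5%) were longer-lived and 5 (11.6%) shorter-lived, with a median log2 ratio of 0.43. Among the 2100 other genes of that class, 45.9% were longer-lived and 10.5% shorter-lived, with a median of 0.48. With 4 to 9 motifs, 1 of 11 chromatin genes (9.09%) was longer-lived and 2 (18.2%) were shorter-lived, against 26.5% and 23.3% of other genes, and the medians were -0.075 and -0.023. With 1 to 3 motifs, 1 of 19 (5.26%) was longer-lived and 6 (31.6%) were shorter-lived, against 20.3% and 31.5% of other genes, and the medians were -0.37 and -0.21. Of the 10 with 0 motifs, 2 (20%) were longer-lived and 4 (40%) shorter-lived, against 22.2% and 32.5% of other genes. Their median was 0.17, against -0.22 for other genes with 0 motifs. None of these differences was tested, since no replicate values were at hand.

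Of the 35 genes with at least 3000 coding bases and 10 or more far motifs, 15 lived longer, 5 lived less long and 15 did not pass 1.5-fold; their median log2 ratio was 0.29. Of the 11 as long with fewer far motifs, 2 lived longer, 4 lived less long and 5 did neither, and the median was -0.067. No such count was made over all genes of that length. Among the 2100 other genes with 10 or more far motifs and any coding length, 45.9% were longer-lived and 10.5% shorter-lived. The counts of the 35 are therefore not a trait of long chromatin genes. The following genes were chosen after their values were seen. BPTF (102 far motifs), NCOA6 (97), CHD9 (81), SRCAP (73) and ASXL1 (72) have a longest coding exon of 1452 to 2979 nt, and all were longer-lived. TRRAP has the longest coding sequence of the 83, at 11577 nt in 71 coding exons of at most 364 nt, with 23 far motifs, and was shorter-lived. EP400 (26 far motifs in 9369 nt, with a longest exon of 1335 nt) and NCOR1 (21 in 7320 nt) were shorter-lived as well. CHD3 was longer-lived with 1 far motif, and SMARCD3 with 0. CHD7 had 73 far motifs and a log2 ratio of 0.26. Paralogues with like counts could differ: SIN3A and SIN3B both had 12 far motifs and log2 ratios of 0.64 and -0.36.

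The half-life in DMSO was related to the direction of the change among chromatin genes and others alike. Under 2 h in DMSO, 5 of 14 chromatin genes (35.7%) were longer-lived and 0 shorter-lived, against 43.6% and 4.37% of other genes. Between 2 and 5 h, 14 of 37 (37.8%) were longer-lived and 3 shorter-lived, against 33.2% and 13.2% of other genes in that range. Between 5 and 10 h, 2 of 16 were longer-lived and 6 (37.5%) shorter-lived, against 18.7% and 33.4% of other genes. At 10 h and over, 3 of 16 were longer-lived and 8 (50%) shorter-lived, against 26.2% and 40% of other genes. The ratio holds the DMSO value in its denominator, so ratio and DMSO half-life are not independent.

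Fitted synthesis rates passed 1.5-fold in fewer of the chromatin genes than half-lives did. Between treatments, 6 of 83 genes (7.23%) had a synthesis rate over 1.5-fold higher in STM2457 and 9 (10.8%) over 1.5-fold lower, against 12.6% and 13.2% of all genes. The median log2 synthesis ratio was -0.12, and -0.06 over all genes. Of the 24 longer-lived genes, 21 (87.5%) had a synthesis ratio below 0, against 71.2% of all longer-lived genes of the table, among them all 5 longer-lived NCOA genes, both ASXL genes, CBX2 (-1.13) and SRCAP (-1.30). Of the 17 shorter-lived genes, 10 (58.8%) had one above 0, against 66.9% of all shorter-lived genes, with BRMS1L at 2.26 and INO80C at 1.01. Half-life and synthesis come from 1 fit, and their log2 ratios had a Spearman correlation of -0.43 over the 83 genes and -0.35 over all genes.

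**Figure D4:**
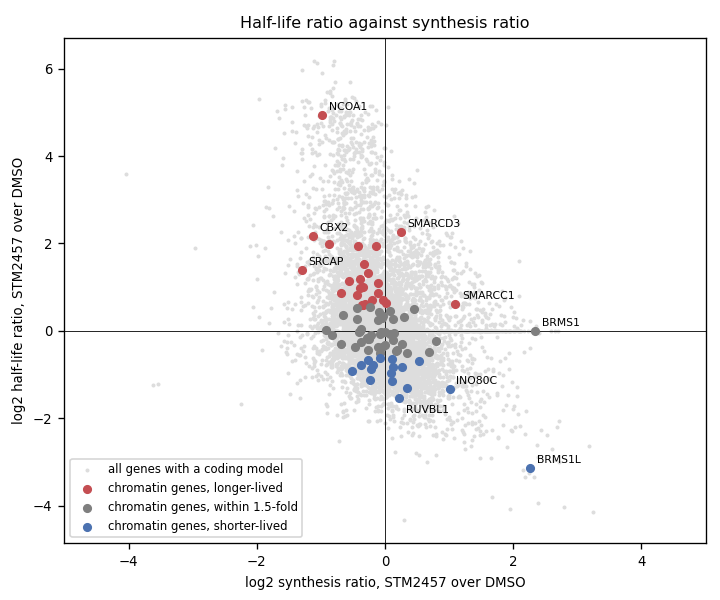
Log2 ratio of half-lives against log2 ratio of synthesis rates, both STM2457 over DMSO, for the chromatin genes (coloured) and all genes with a coding model (grey). Longer-lived genes lie mostly to the left of 0, and BRMS1L lies at 2.26 and INO80C at 1.01 on the synthesis axis.

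Read as levels at steady state, some of these fits imply a larger gain of RNA than the time under the compound allows. Synthesis multiplied by half-life gives an abundance at steady state, called implied here. The 3 h of compound plus 180 min of labelling allow at most 6 h of synthesis. The kinetic model is not given, and RNA with a longer half-life may not reach steady state in 6 h. Passing the bound therefore does not show that a half-life is wrong. For 14 of the 83 genes the implied abundance in STM2457 exceeded the DMSO abundance plus 6 h of synthesis at the STM2457 rate without decay, among them 11 of the 24 longer-lived genes (45.8%, against 64.2% of all longer-lived genes). The 11 were NCOA1, SMARCD3, CBX2, NCOA6, ASXL1, SMARCAL1, NCOA4, BAZ1B, CHD3, BAZ2A and SMARCC1. For NCOA1 the fit implied 15.5-fold the DMSO abundance, against 1.93-fold that such synthesis allows. The half-life ratios of these genes are given here as fitted. The bound concerns gains of RNA, and 0 of the 17 shorter-lived genes passed it, so it is no check of a shortened half-life. ARID2, CHD6, ASXL2, SRCAP, NCOA5, CHD8 and 7 others of the longer-lived genes stayed under the bound.

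Other subunits of the same complexes, with relatives such as further SNF2-family ATPases and bromodomain genes, were listed as 134 genes. The symbol rule does not reach these genes, and 115 of them had entries in the table. By the same rule of size 27 (23.5%) lived longer and 28 (24.3%) lived less long, near the 28.5% and 24.9% of all genes, and 60 did neither; the median log2 ratio was 0.040. In the INO80, SRCAP and TIP60 complexes, 6 of 19 were shorter-lived and 5 longer-lived, from DMAP1 (5.27 h in STM2457, 18.02 h in DMSO) to MRGBP, the highest below the ceiling (26.8 h in STM2457 and 4.49 h in DMSO). Among partners of NCOR, ZMYM and CoREST, 4 of 10 were shorter-lived and 0 longer-lived, with TBL1XR1 highest at 0.23. Of the NCOA partners 0 of 6 were longer-lived and 2 were shorter-lived, from CARM1 (-0.98) to KMT2C (0.40). In NuRD and other CHD partners, 3 of 10 were shorter-lived, with MTA3 at 2.14 h in STM2457 and 8.24 h in DMSO, and 1 was longer-lived, HDAC1 at 29.01 h in STM2457 and 16.3 h in DMSO. Of the BAF partners, 4 of 9 were shorter-lived, with BCL7C at -1.39, and 1 was longer-lived, BCL7A at 1.89. Histone acetyltransferases and bromodomain proteins held 5 longer-lived genes of 7, with CREBBP at 7.59 h in STM2457 and 2.11 h in DMSO. The fits of HDAC1, MRGBP, BCL7A and CREBBP exceed the bound on abundance, as do those of 15 of the 27 longer-lived partners in all.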

How the data were processed

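Per the labels' protocols, 18 SLAM-seq samples were made with the QuantSeq 3′ forward kit; 1 library of the pool had a lower RNA input and cannot be matched to a sample. The submitters' processing notes name STAR 2.7.8a, FastQC 0.11.9 and the build GRCh38.p12. Not given in the sources used here are the kinetic model, the annotation, the strand setting and any gene filter. The authors deposited 1 table of scores on a linear scale, namely fitted half-lives and synthesis rates per treatment, with log2 ratios of STM2457 over DMSO. The deposited log2 half-life ratios equalled those recomputed here to within 1.27e-14. Values within 1e-06 of the largest half-life count as at the ceiling (980 genes in STM2457, 229 in DMSO). No test was made and depth is unknown.

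The genes, complex lists and comparisons were chosen with earlier results of these data known. Every gene found by the symbol rule may be named. Of the other subunits and relatives, those with the highest and lowest ratio of a group below the ceiling may be named. GENCODE release 29 matched all 83 identifiers without version and equal symbols; it gave coding models, overlaps and motifs. By it, 9 of the 83 genes overlap a protein-coding gene on the same strand and 17 on the opposite strand. A few genes that enter the counts are not reported here by name. Motif counting and calls were tested on simulated data. The tools were SciPy 1.17.1, pandas 2.3.3, NumPy 2.4.6 and Matplotlib 3.10.9, run in Python 3.11.15.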

Additional observations from a re-analysis of the deposited data

How the results depend on the processing

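No paired analysis was possible because the table has no columns of single samples; leaving out a replicate could not be done for the same reason. A median or correlation counts as unchanged here when it moved by at most 0.1. In this sense, or within 1.5 times for counts, 50 recomputed values were unchanged, 7 moved and 6 changed sign. Part of the 50 had little or no room to change, so the tally is no measure of stability. Some alternatives removed no gene from a group, and taking ratios relative to all genes only subtracts their median of -0.0052. A size rule of 2-fold left 13 longer-lived and 6 shorter-lived of the 83 genes, against 19.7% and 11.3% of all genes. Without the 42 genes that overlap any annotated gene on the same strand, 11 of 41 (26.8%) were longer-lived and 7 (17.1%) shorter-lived, with fewer genes counted. The following alternative was chosen after seeing the data: without the 14 genes above the 6 h bound on abundance, 13 of 69 (18.8%) were longer-lived, against 13.3% of all genes under the same bound, and the median log2 ratio was -0.16. Among the same 69, 17 (24.6%) were shorter-lived, against 32.1% of all genes under the same bound. Of the 14, 11 were longer-lived and 0 shorter-lived, and the bound is computed from the same fits. Leaving such genes out therefore lowers counts and medians by construction. The mean over the 83 genes was 0.14, against a median of -0.023. The BAF and PBAF median of 0.29 was -0.067 with both half-lives between 0.5 and 24 h, without ceiling genes or without genes above the bound, and 0.12 without overlapping genes. The ISWI median of 0.43 was -0.26 without BAZ1B and BAZ2A, which are above the bound. The PRC1 median of -0.062 was 0.27 without overlapping genes; the cause was not tested. Medians of CHD, NCOA, NCOR with ZMYM, and the INO80 group kept their sign under each alternative that left at least 5 genes. In the INO80 group (10 genes) and NCOR with ZMYM (5), these alternatives removed no gene, so the sign could not change. Leaving out overlapping genes left fewer than 5 in each of these groups, so no median was taken. The motif correlation of 0.45 ranged from 0.40 (junction distance of 50 nt) to 0.54 (both half-lives between 0.5 and 24 h, added later). Genes near the threshold, such as CHD9 (1.51-fold) and BRD8 (1.46-fold), depend on its exact place.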

Other observations

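Among the 115 other subunits and relatives with entries, 7 were at the ceiling of 69.3 h in STM2457, against 980 of all 8996 genes. These 7 were chosen here after their values were seen, and the fits of all 7 exceed the 6 h bound on abundance. BRPF3, a scaffold of histone acetyltransferases, had 3.59 h in DMSO, KDM2B, which brings PRC1 to unmethylated CpG islands, 4.37 h, and CHAF1A, a histone chaperone, 4.94 h. ACTR5 of INO80 had 8.94 h and PHF19 of PRC2 11.1 h in DMSO. ZNHIT1 and CDK2AP1 had 55.8 and 62.8 h in DMSO and stayed within 1.5-fold. The far motif counts were 39 for BRPF3, 31 for CHAF1A, 15 for KDM2B, 5 for ACTR5, 4 for PHF19, and 0 for ZNHIT1 and CDK2AP1.

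EP300 and CREBBP, paralogous histone acetyltransferases, had 6.62 h and 7.59 h in STM2457, against 2.03 h and 2.11 h in DMSO, with 48 and 50 far motifs. EZH2 and EZH1, the alternative methyltransferases of PRC2, differed: EZH2 had 4.16 h in STM2457 and 3.49 h in DMSO, within 1.5-fold, and EZH1 had 1.54 h in STM2457 and 2.38 h in DMSO, 1.54-fold shorter. HDAC1 and HDAC2, which sit in the same deacetylase complexes, passed 1.5-fold in opposite directions. HDAC1 had 29.01 h in STM2457 and 16.3 h in DMSO, and HDAC2 had 6.16 h in STM2457 and 12.0 h in DMSO. EZH1, EZH2, HDAC1 and HDAC2 had 0 far motifs. The fits of HDAC1 and CREBBP exceed the 6 h bound on abundance. These genes were chosen after their values were seen.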
